A study of Drosophila melanogaster with 3 samples.

Results

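The full cAMP response element (CRE), the 8 bp palindrome TGACGTCA, was present at 225 of 27754 pooled Atf3 calls of the 6 main chromosome arms. A call was kept when an exact match lay wholly within 100 bp either side of its summit, the position of highest enrichment. TGACGTCA reads the same on both strands, so 1 search covered both. The data are chromatin immunoprecipitation with sequencing (ChIP-seq) of Atf3 from whole fruit fly (Drosophila melanogaster) embryos aged 0 to 24 h, of both sexes pooled. There was 1 group of 3 biological replicates, from strain A3-3-GFP, a transgenic line that stably expresses Atf3 with GFP at its C-terminus, precipitated with an antibody to GFP after sonication to 200 to 800 bp. All replicates carry the tagged protein, come from 1 line, and mix every cell type of the embryo, so a site bound weakly in many cells and one bound strongly in a few cannot be told apart. No group without the tag is compared here.

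The deposited lists comprise one call list per replicate, a pooled list made from all of them, and the calls kept after IDR (irreproducible discovery rate), a procedure that keeps calls ranked alike between replicates. The lists of calls before IDR hold background on purpose, so a call there is a candidate region. The signal is the enrichment value that the authors gave each call, used here only to rank calls within a list. The IDR calls on these arms, 44 with the palindrome and 2852 others, were also the pooled calls of highest signal. The same number of highest calls of a replicate list is called its top set below. On these arms, being kept by IDR thus amounted to passing a cut in pooled signal. It is not evidence separate from pooled rank, nor a sign that every replicate held the call. By the overlap rule given below, 38 of the 44 and 2709 of the 2852 were found in all 3 replicate lists.

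Atf3 is a basic leucine zipper (bZIP) protein. Such proteins grip DNA as dimers, with each partner reading one half-site. CREB and ATF family dimers are known for binding the CRE, whereas Jun and Fos dimers prefer the AP-1 site, which lacks its central base pair. In flies, Atf3 is known as a partner of Jun and for roles in epithelial, immune and lipid homeostasis.

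Of the 20 calls with the palindrome of highest signal, 16 are shown as 30-base stretches in order of signal, because the bases beside the palindrome were compared between strong and weak calls. The sites of koi, betaTub56D, twi and Nmda1 are not printed. The stretches are read on the plus strand, 5′ to 3′, from dm6 (release 6), with the palindrome in capitals, and are named by the gene with the nearest start site.
l(2)gd1, chr2L:11106884-11106913: ccctgtgccacTGACGTCAccaattcgcaa
Fur1, chr3R:25473283-25473312: tcaacactttgTGACGTCAgtagtagcata
Vha55, chr3R:12627751-12627780: tgaatctgctgTGACGTCAcgtgccgtcac
Dhc64C, chr3L:4824798-4824827: atcatatgtgcTGACGTCAtgcgcagaaac
CrebB, chrX:18371700-18371729: caacgttgtcaTGACGTCAttcaaccgaaa
Evi5, chrX:11449578-11449607: tggcaatggtgTGACGTCAgtcacagtaaa
rdx, chr3R:14017043-14017072: tcgccgcagtgTGACGTCAgcgcattgggg
tio, chr2L:22024481-22024510: cccttcgtcagTGACGTCAcggcgatgatg
Unr, chr3L:8442412-8442441: agggacaattgTGACGTCAgtggtcatggg
CG7656, chr3L:15588241-15588270: aagatggcgtgTGACGTCAcaagtctcggc
lncRNA:CR43437, chr4:416629-416658: tttactggccaTGACGTCAccgagtattac
Rtnl1, chr2L:5001565-5001594: tttttgggatcTGACGTCAgcatcgataaa
Cmpk, chr3R:26055428-26055457: gtaacaccctgTGACGTCAcgcacaagcgc
CG6231, chr3R:19632758-19632787: cttttcacgagTGACGTCAccgttgtcgcg
klar, chr3L:441890-441919: cagcaggcgcgTGACGTCAgcagactaaaa
lncRNA:CR44082, chr2L:7513112-7513141: ggctctcggcaTGACGTCAacaaactcatt

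The whole windows of 100 bases either side of 3 summits show how the palindrome lies in a call. That of l(2)gd1 is the strongest call with a palindrome, Evi5 is the strongest intronic one found in all 3 replicates, and slif holds 2 palindromes.
l(2)gd1, chr2L:11106733-11106933: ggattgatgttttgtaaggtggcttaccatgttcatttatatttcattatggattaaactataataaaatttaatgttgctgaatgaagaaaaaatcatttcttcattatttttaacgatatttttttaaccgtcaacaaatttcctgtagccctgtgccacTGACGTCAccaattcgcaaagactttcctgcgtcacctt
Evi5, chrX:11449566-11449766: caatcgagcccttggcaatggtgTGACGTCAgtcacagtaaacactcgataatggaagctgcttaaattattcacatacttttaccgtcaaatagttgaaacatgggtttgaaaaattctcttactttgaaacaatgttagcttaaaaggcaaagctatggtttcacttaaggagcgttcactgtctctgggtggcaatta
slif, chr3L:22887881-22888081: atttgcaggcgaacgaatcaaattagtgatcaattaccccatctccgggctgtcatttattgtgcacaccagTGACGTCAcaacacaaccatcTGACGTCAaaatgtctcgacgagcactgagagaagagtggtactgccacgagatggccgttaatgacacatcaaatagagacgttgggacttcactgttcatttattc

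The palindrome was rare and most of its copies had no call. The 225 calls were 0.811% of the pooled calls (95% Wilson interval 0.712 to 0.923%), against 0.271% of the 666069 tiles of the same length on the same arms and 0.257% of the 23307 windows of the same length centred on an annotated start site. Of the 1894 copies on the arms, 227 (12.0%) lay within the window of a pooled summit and 44 (2.32%) within that of an IDR summit. No copy was shared by 2 calls. A single copy was present in 223 calls and 2 copies in the other 2, at slif, a cationic amino acid transporter gene, where the copies start 21 bp apart, and near lncRNA:CR45306, where they start 59 bp apart. These calls ranked 5005 and 6513 in the pooled list, outside the IDR list.

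Calls were chosen for a palindrome within 100 bp of the summit, so distances within the window are a description only. The median distance of the palindrome's centre from the summit was 40 bp, with 63.1% of the 225 calls within 50 bp and 85.8% within 75 bp. It was 44 bp in the IDR calls and 38 bp in the calls outside that list. An even spread over the window was not set beside these values. In IDR calls there were 4.49, 4.49, 4.14 and 2.42 palindromes per 1000 calls in the successive 25 bp bins out to 100 bp. Beyond the window, which the choice of calls did not use, the IDR density was 1.04 to 3.11 per 1000 calls between 100 and 250 bp and 0 to 1.73 between 250 and 500 bp. The other pooled calls had 2.17, 2.49, 1.61 and 1.25 per 1000 within the window and 0.523 to 1.45 beyond it. The IDR bins are thin, holding 0 to 13 palindromes each.

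**Figure D1:**
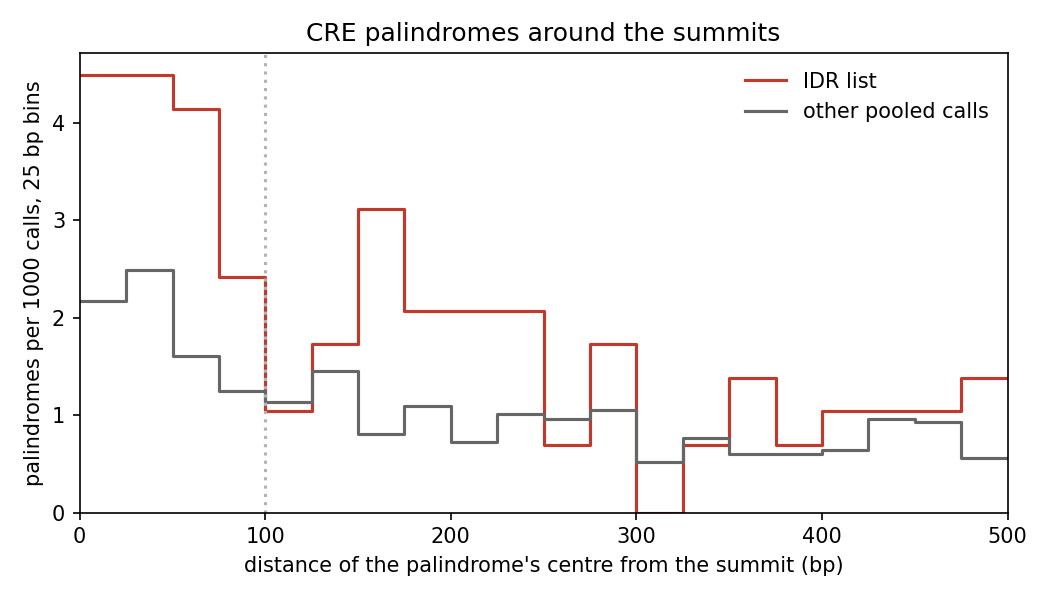
Density of the CRE palindrome (palindromes per 1000 calls in 25 bp bins, y axis) against the distance of its centre from the summit (bp, x axis), for the IDR calls (red) and the other pooled calls (grey); the dotted line marks the edge of the window. Density is highest within 75 bp of IDR summits, at 4.14 to 4.49 per 1000 calls.

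The window edge cut through a few calls of similar geometry, given here as a description. The farthest palindromes inside were centred 97 bp from the summit at toc and Ptpmeg2 and 96 bp at tio. Just outside were those of Gdap2 at 97 bp, CG33181 at 98 bp, and AP-2alpha and CG31515 at 99 bp. Only AP-2alpha among the outside genes named here had an IDR call, at pooled rank 202. A window of 50 bp either side kept 132 calls, of which 23 were IDR calls, and one of 200 bp either side kept 349, of which 63 were.

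Calls with the palindrome ranked higher than the rest of the pooled list. Their median pooled signal was 42.1, against 33.3 for the 27529 other calls, and their median rank percentile was 29.7, against 50.2, where 0 is the strongest call. The IDR list kept 44 of 225, or 19.6% (14.9 to 25.2%), against 10.4% of the other pooled calls and a background of 10.4% of all pooled calls. Of the 1000 pooled calls of highest signal, 15 held the palindrome, 6.67% of the 225 (4.08 to 10.7%), against 3.58% of the other calls and a background of 3.60%. Once inside the IDR list they did not rank higher, with a median signal of 124 against 122 for the other IDR calls. Their signals ran from 24.5 to 581, and the best rank was 47, while the highest signal of the pooled list was 1630. Since 1 pooled list has no replicate, no test was made of these shares, and the intervals cover counting error only.

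In successive sets of pooled calls ordered by signal, each as large as the IDR list, the palindrome was held by 1.52% of the first set, 1.45% of the second, 1.1% of the third and 0.932% of the fourth. The 6 later sets, of which the last is smaller at 1690 calls, held it in 0.311 to 0.622% of calls, against 0.271% of the tiles. The intervals of the seventh set (0.212 to 0.679%) and the eighth (0.164 to 0.59%) include the value of the tiles. Among the replicates' own lists of 30000 calls, each with its own summits, the share fell steeply over the first sets of replicate 1. It did not fall steadily in the others, where the third set held the palindrome in 0.829% (replicate 2) and 0.76% (replicate 3) of calls. The top set of replicate 1 held the palindrome in 2.35% of cases, against 0.782% of its other calls. In replicate 2 the shares were 0.622 and 0.424%, and in replicate 3 they were 0.967 and 0.443%. The difference was positive in 3 of 3 replicates, with a mean of 0.762 percentage points ± 0.715 (SD, n = 3). The exact two-sided sign-flip permutation test gave p = 0.25, the smallest p that this test allows with 3 replicates. Without replicate 1 the mean was 0.361 percentage points.

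**Figure D2:**
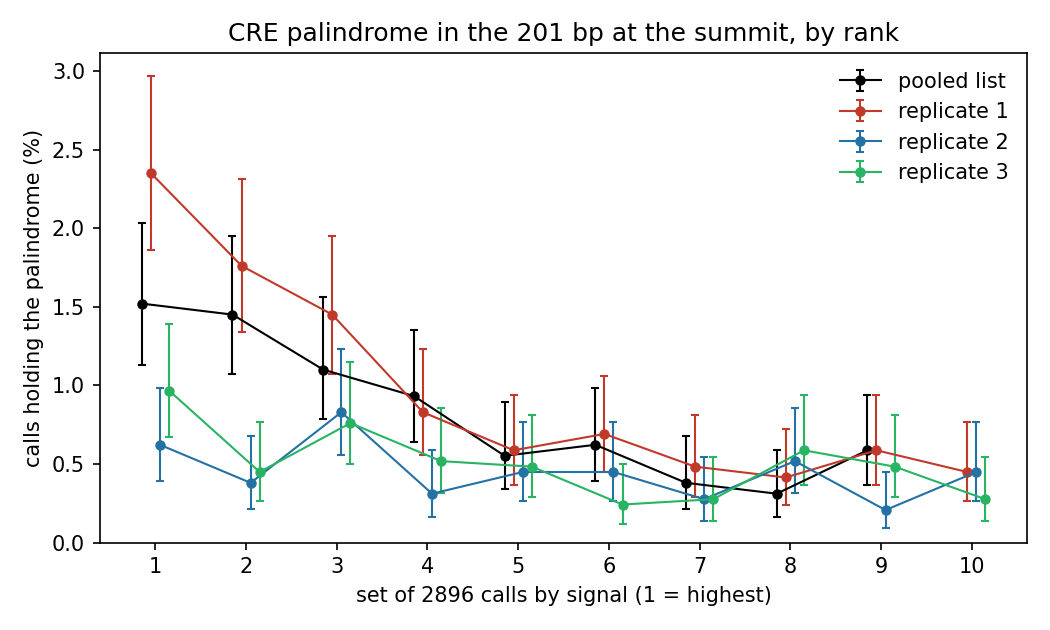
Share of calls holding the palindrome (%, y axis) in successive sets of calls ordered by signal, each as large as the IDR list (x axis, 1 is the strongest), for the pooled list and each replicate's own list; bars are 95% Wilson intervals. Replicate 1 starts at 2.35% and stays highest through the third set, while replicates 2 and 3 start at 0.622 and 0.967%.

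Replicate 1 stood apart for these sites throughout. A pooled call was counted as found in a replicate when a call there overlapped it by at least 50% of the shorter of the pair. Replicate 1 contained 191 of the 225 (84.9%, 79.6 to 89.0%), against 63.1% of the other pooled calls and a background of 63.2%. Replicate 2 contained 114 (50.7%, 44.2 to 57.1%), against 54.1% of the other calls and a background of 54.1%. In replicate 3 there were 127 (56.4%, 49.9 to 62.8%), against 58.7% of the other calls and a background of 58.7%. The shares in replicates 2 and 3 were thus near the background, and the excess lay in replicate 1.

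All 3 replicates contained 69 of the 225 (30.7%, 25 to 37.0%), against 22.8% of the other calls and a background of 22.9%. Found in 2 lists were 77 (34.2%, against 35.1% of the other calls), in 1 list 71 (31.6%, against 37.2%) and in none 8 (3.56%, against 4.9%). Of the 71 found once, 57 were in replicate 1, 6 in replicate 2 and 8 in replicate 3. Of the 10231 other calls found once, 41.4% were in replicate 1, 25.5% in replicate 2 and 33.1% in replicate 3. When replicate 1 was set aside, 36.0% of the 225 were found in both remaining lists, against 33.1% of the other calls.

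The ranks showed the same asymmetry. Among calls found, the median rank percentile in replicate 1 was 14.9 for the 191 calls with the palindrome and 32.6 for the others. In replicate 2 the medians were 29.3 and 29.4, and in replicate 3 they were 27.7 and 31.1. The mean difference over replicates was -7.08 percentile points ± 9.32 (SD, n = 3; exact two-sided sign-flip permutation test, p = 0.25), and -1.79 without replicate 1. The top set of replicate 1 contained 67 of the 225 (29.8%), against 10.9% of the other calls and a background of 11.1%. For replicate 2 it was 22 (9.78%), against 11.2% of the other calls and a background of 11.2%, and for replicate 3 it was 32 (14.2%), against 11.1% of the other calls and a background of 11.1%.

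In the IDR list the values are a description only, since that list holds the calls of highest pooled signal, which is built from all 3 replicates. Ranks in the single replicates are not independent of that choice, and its part in these values was not tested. Of its 44 calls with the palindrome, 41 (93.2%) ranked in the top set of replicate 1, 21 (47.7%) of replicate 2 and 26 (59.1%) of replicate 3, where the other IDR calls reached 77.8, 79.4 and 79.6%. The mean difference in median rank percentile turned round in this list, to 1.71 ± 3.52 (SD, n = 3), being -2.18 in replicate 1, 4.68 in replicate 2 and 2.63 in replicate 3. All 3 replicates ranked 15 of the 44 (34.1%, 21.9 to 48.9%) in their top sets, against 53.3% of the other IDR calls. Of the 38 IDR calls with the palindrome that were found everywhere, 31 had their best rank in replicate 1, against 30.6% of the 2709 other IDR calls found everywhere. Read depth is not given in the lists, and whether depth, embryo age or another difference between the replicates moves with this was not tested.

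**Figure D3:**
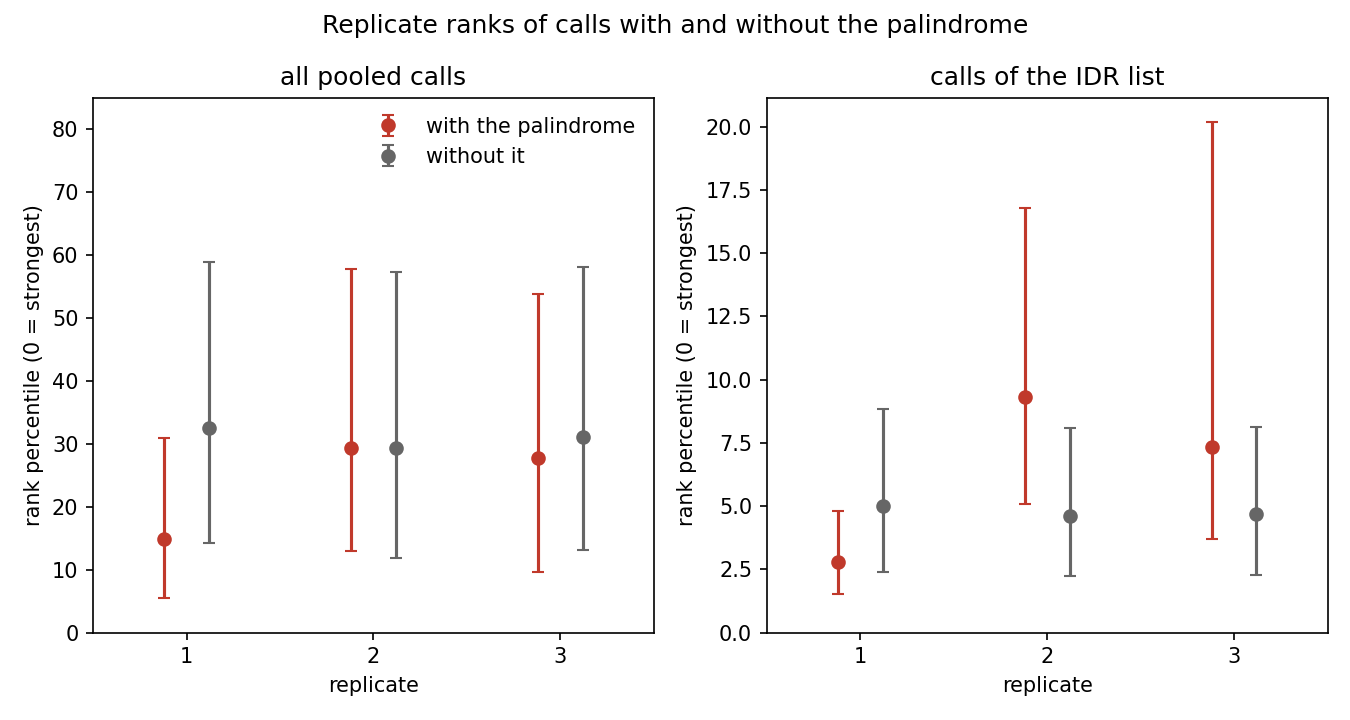
Rank percentile in each replicate's list (y axis, 0 is the strongest call; points are medians, bars the interquartile range) of calls with the palindrome (red) and without it (grey), over all pooled calls (left) and IDR calls (right). In replicate 1 the red median is lower in both panels, at 14.9 against 32.6 on the left and 2.81 against 4.99 on the right, whereas in replicates 2 and 3 it lies above the grey one on the right.

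Calls with the palindrome lay in introns more often and in coding sequence less often than other pooled calls, and at promoters more often at a limit of 500 bp. A promoter call had its summit within 500 bp of an annotated start site. Promoters held 78 of the 225 (34.7%, 28.8 to 41.1%), against 26.9% of the other calls. That difference depended on the distance chosen, since within 250 bp of a start site it was 20% against 18.7%. Introns held 94 (41.8%, 35.5 to 48.3%), against 33.7%. Coding exons held 15 (6.67%, 4.08 to 10.7%), against 18.0%, and intergenic sequence 34 (15.1%, 11 to 20.4%), against 18.2%. Copies of the palindrome in coding exons were themselves few, at 146 of the 1894 on the arms. The remaining 4 were 2 in 5′ UTRs and 2 in 3′ UTRs. No test was made of these shares, which come from 1 list. In the IDR list the promoter shares were close, at 54.5% of the 44 against 53.8% of the other IDR calls, and 18 (40.9%, 27.7 to 55.6%) were intronic, against 31.9%. A single IDR call with the palindrome was intergenic (2.27%, 0.402 to 11.8%), against 12.2%, and 0 of 44 were in coding exons, which allows a share of up to 6.82%.

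The share kept by IDR was then taken by location. Promoter calls with the palindrome were kept in 24 of 78 cases (30.8%, 21.6 to 41.7%), against 20.7% of other promoter calls. Intronic ones were kept in 18 of 94 (19.1%, 12.5 to 28.3%), against 9.83%. Only 1 of 34 intergenic calls was kept (2.94%, 0.521 to 14.9%), against 6.97%. Seen from the palindromes, 77 of the 298 copies within 500 bp of a start site lay at a pooled summit (25.8%) and 23 at an IDR summit (7.72%). Of the 1596 copies farther away, 150 (9.4%) and 21 (1.32%) did. Copies in coding exons lay at a pooled summit in 20 of 146 cases (13.7%), near the 12.0% of all copies. They lay at an IDR summit in 1 case (0.685%), against 2.32% of all copies.

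At the promoters of the IDR list the palindrome was close to the start site. It lay within 100 bp in 14 of 24 cases (58.3%, 38.8 to 75.5%), against 53 of all 298 copies that lie within 500 bp of a start site (17.8%, 13.9 to 22.5%). It lay 1 to 100 bp upstream in 11 of 24 (45.8%), against 12.1% of those 298 copies. At the 54 promoter calls outside the IDR list the palindrome lay within 100 bp of the start site in 9 cases (16.7%, 9.02 to 28.7%) and 1 to 100 bp upstream in 4 (7.41%), near the shares of the 298 copies. Over all 78 promoter calls the counts were 23 (29.5%) and 15 (19.2%). The 11 were at CG7656, Idua, CG9436, CG6689, CG6231, Vha55, Unr, l(2)gd1, CG8321 and PIG-Q, from 81 bp to 35 bp upstream, and at Cmpk, 5 bp upstream. CG9436, CG6689, CG8321 and PIG-Q were named after their values were seen. The distances were not compared with those of calls without the palindrome.

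The 3 strongest calls were all at promoters and were found in every replicate. At the call shared by the start sites of l(2)gd1, a C2 domain protein of endosomal sorting known for its effect on Notch, and Reps, an endocytic adaptor, the pooled signal was 581, and the call ranked 74, 46 and 42 in replicates 1, 2 and 3. The call between Fur1, a furin protease, and Vps33B, a vesicle tethering factor, had a signal of 462 and ranked 123, 74 and 66. These 2 calls were strong in all 3 replicates, and slightly stronger in replicates 2 and 3. At Vha55, the B subunit of the vacuolar proton pump, with the start site of the retromer-associated Snx3 also within 500 bp, the signal was 357 and the ranks were 83, 369 and 255.

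Other promoters inside the top set of every replicate were those of koi, Unr, CG7656, Cmpk, CG10958 and Idua. Unr, an RNA-binding protein known as a repressor of msl-2 translation in dosage compensation, had a signal of 177 and ranks of 656, 1197 and 749. Cmpk, a nucleoside monophosphate kinase, had a signal of 155 and ranks of 691, 1198 and 2206. The palindrome of Unr was 46 bp upstream of the start site. CG7656 had a signal of 162 and ranks of 929, 763 and 1479. Idua, a lysosomal iduronidase, ranked 1702, 2072 and 2196, and CG10958 ranked 956, 2030 and 2621.

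Among the next strongest, koi, klar, Dhc64C and betaTub56D are described together for their known roles at the nuclear envelope and microtubules, although no list of such genes was tested. The call at koi, the SUN domain protein of the nuclear envelope bridge, had a signal of 199 and ranked 158, 2098 and 2211. An intronic call of klar, the KASH domain protein that joins nuclei to microtubules, had a signal of 147 and ranked 406, 1632 and 1107. Both were found in every replicate and were strongest in replicate 1. The intronic call of Dhc64C, the heavy chain of cytoplasmic dynein, had a signal of 260, ranked 251 in replicate 1, and was not found in replicates 2 and 3. At betaTub56D, a beta tubulin, the intronic call had a signal of 149, ranked 327 in replicate 1 and 2069 in replicate 3, and was not found in replicate 2.

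CrebB, twi, rdx and tio encode regulators of transcription or signalling. CrebB, the fly CREB and itself a CRE-binding bZIP factor, had a call with a signal of 224 and a palindrome 454 bp downstream of a start site. It ranked 108, 3858 and 755, outside the top set in replicate 2. At twi, the basic helix-loop-helix factor that specifies mesoderm, the palindrome was 64 bp downstream of the start site. The twi call had a signal of 145 and ranked 530, 3552 and 1628. At rdx, the adaptor through which Cul3 targets the Hedgehog effector Ci, an intronic call had a signal of 195 and ranked 373, 961 and 1118. For tio, a zinc finger gene related to teashirt, the call lay over the 3′ UTR, with a signal of 178 and ranks of 491, 2132 and 641.

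The rest of the 20 strongest were mixed in kind. Evi5, whose fly product is known as a Rab11 effector, had an intronic call with a signal of 221 that ranked 643, 504 and 426. An intronic call of Rtnl1, a reticulon that shapes the endoplasmic reticulum, had a signal of 159 and ranked 390, 4828 and 1079. CG6231 had a signal of 155 and ranked 381, 7002 and 1767, so it was weak in replicate 2. The call over the promoters of Nmda1 and AspRS, an aspartyl-tRNA synthetase, had a signal of 124 and ranked 3380, 1673 and 928, the only one of the 20 to miss the top set of replicate 1. A call near lncRNA:CR43437, on chromosome 4, was the 1 intergenic IDR call, with a signal of 160 and ranks of 602, 1393 and 1696. Nearest to lncRNA:CR44082 was a call inside an intron of RapGAP1, with a signal of 133 and ranks of 876, 3686 and 1338. Below the 20 strongest, the intronic call of CG12065, with a signal of 116, was inside the top set of each replicate, at ranks of 1667, 1876 and 1699.

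**Figure D4:**
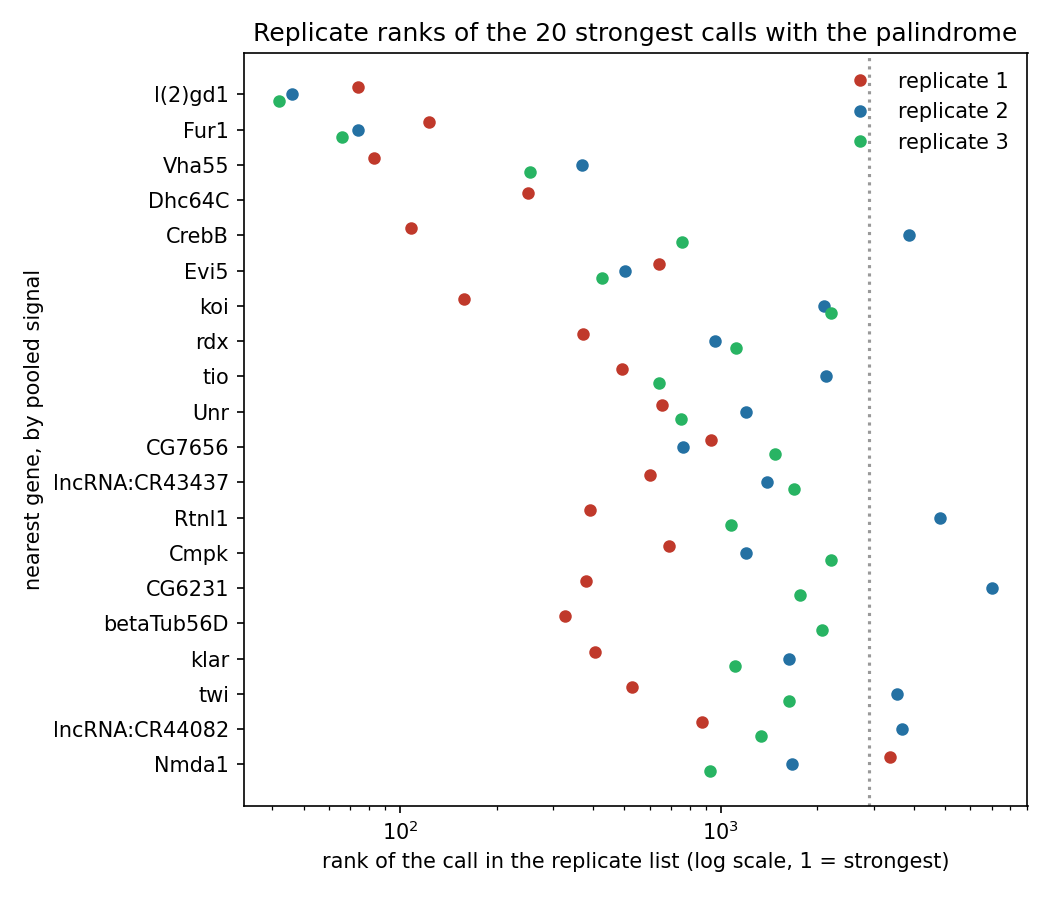
Rank in each replicate's list (x axis, log scale, 1 is the strongest; the dotted line is the end of the top set) of the 20 pooled calls with the palindrome of highest signal (rows, by nearest gene). l(2)gd1 and Fur1 have all 3 points below rank 130, Dhc64C has a point in replicate 1 only, and CrebB, Rtnl1, CG6231, twi and lncRNA:CR44082 lie beyond the line in replicate 2.

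The 181 calls outside the IDR list ranged in signal from 24.5 up to the 79.8 of Ehbp1, ranked 2898, just below the 80.1 of Galphai, the last IDR call with the palindrome, ranked 2879. Ehbp1 ranked 1089 in replicate 1 and 28066 in replicate 2, and was not found in replicate 3. EndoGI, next in the order, ranked 1257, 20622 and 22481. Ehbp1, Galphai and EndoGI were named for their place at the threshold. The call with 2 palindromes at slif ranked 4109 and 8538 in replicates 1 and 2 and was not found in replicate 3, and that near lncRNA:CR45306 ranked 3944, 26579 and 12043. The replicate 1 call of rank 3944 was also matched to a neighbouring pooled call near lncRNA:CR45306, of pooled rank 4475, so that rank is not particular to either. Over the 217 nearest genes, 8 were nearest to 2 of the 225 calls. By arm, the 225 calls fell as 40 on 2L, 55 on 2R, 44 on 3L, 48 on 3R, 1 on chromosome 4 and 37 on X.

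Few start sites of genes from pathways in which Atf3 and CREB proteins are known lay next to such a call. A call with the palindrome lay within 500 bp of a start site in 1 of 18 bZIP genes (CrebB), 1 of 13 genes of cAMP and PKA signalling (CrebB again) and 1 of 23 early secretory genes. The last was Sec24CD, a cargo adaptor of the COPII coat, whose call had a signal of 26.2 and a pooled rank of 23920. None was next to the 22 genes of the unfolded protein and integrated stress responses, the 17 of JNK signalling, the 12 of the circadian clock or the 88 of cytoplasmic ribosomal proteins. Over all 13945 protein-coding genes the figure was 81 (0.581%), of which 29 had an IDR call with the palindrome, so counts of 0 or 1 in lists of this size are close to that background. A pooled call of some kind lay within the same distance of 19 of the 22 stress response genes and 13 of the 17 JNK genes. For the circadian clock it was 6 of 12 and for the cytoplasmic ribosomal proteins 78 of 88. Among all 13945 protein-coding genes, 6524 had such a call, in a list that holds background on purpose. Calls inside the gene were then counted too, a rule added after values were seen. The counts were 2 of 18 bZIP genes (11.1%), 2 of 17 JNK genes (11.8%) and 3 of 13 cAMP and PKA genes (23.1%). The share of all protein-coding genes was 1.38%. This rule gives long genes more room for a call, and gene length was not taken into account, so no excess is read from these small counts. The calls that the rule added were intronic and outside the IDR list. They lay in kay, the fly Fos (signal 26.3), msn, a kinase upstream of JNK (28.4), and the PKA subunit genes Pka-C1 (36.7) and Pka-R2 (66.4). The other lists kept their counts. Off the lists, Xrp1, itself a bZIP gene, and wnd, a kinase upstream of JNK, were named after their values were seen. Xrp1 had an intronic call with a signal of 57.5, at 570 bp from its start site, and wnd a promoter call with a signal of 29.3, at 393 bp. Atf3 itself had 10 pooled calls within 1 kb of the gene, none with a palindrome. The nearest copy to any of the 10 was 7982 bp away. At Atf3 the tagged transgene may add copies of the locus, and copy number and binding cannot be told apart there.

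The bases beside the palindrome differed with the strength of the call. Among the 44 palindromes of the IDR list, 2 (4.55%, 1.26 to 15.1%) had a T directly 5′ of TGACGTCA on either strand, against 46 of the 183 in calls outside that list (25.1%, 19.4 to 31.9%) and 686 of the 1667 at no pooled summit (41.2%, 38.8 to 43.5%). The IDR calls with such a T were those near lncRNA:CR44082 and at bun, and bun was named after its values were seen. Counting both strands, the 5′ base of the IDR palindromes was G in 44.3%, A in 28.4%, C in 25% and T in 2.27% of cases. For palindromes at no pooled summit it was G in 21.4%, A in 34.8%, C in 20.9% and T in 22.9%. This property was looked at after earlier values had been seen, and the choice of calls did not use it.

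Each replicate's own list showed the same order, including the replicates in which the palindrome itself was scarce. Palindromes at the summits of the top sets had the T in 8 of 69 cases (11.6%) in replicate 1, 0 of 18 in replicate 2, which allows a share of up to 16.7%, and 1 of 28 (3.57%) in replicate 3. Palindromes at lower summits had it in 26.6, 31.6 and 33.9% of cases in replicates 1, 2 and 3, and those at no summit of the list in 41.5, 39.6 and 39.7%. The difference between top summits and no summit was -29.9, -39.6 and -36.1 percentage points, with a mean of -35.2 ± 4.91 (SD, n = 3; exact two-sided sign-flip permutation test, p = 0.25, the smallest this test allows). It was negative in 3 of 3 replicates, and was -37.9 without replicate 1. The lists overlap in the palindromes they hold, so the replicates share part of this evidence. Base composition differs with location, and the difference was -29.4 for palindromes within 500 bp of a start site alone and -33.6 for those farther away.

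**Figure D5:**
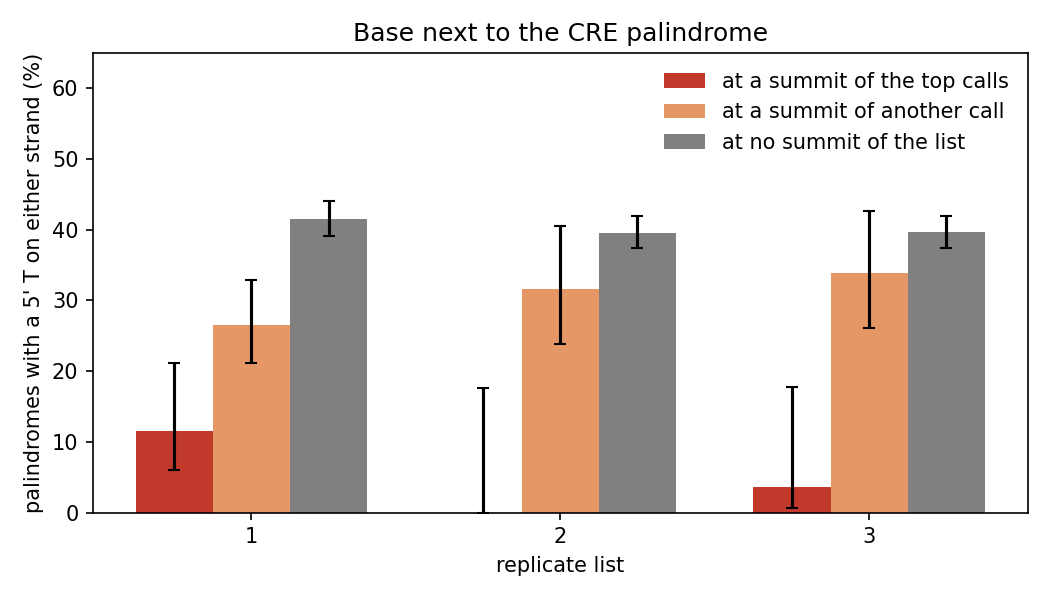
Share of CRE palindromes with a T directly 5′ on either strand (%, y axis) in each replicate (x axis): at a summit of its top set (red), at a summit of another call (orange) and at no summit of its list (grey); bars are 95% Wilson intervals. The red share is lowest in every replicate, at 11.6, 0 and 3.57%, against 39.6 to 41.5% in grey.

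Written as 10-base words, the IDR palindromes were most often GTGACGTCAC, in 12 of 44 cases (27.3%), against 17 of 183 (9.29%) in calls outside the IDR list and 106 of 1667 (6.36%) at no pooled summit. CTGACGTCAC, the same as GTGACGTCAG on the other strand, came next with 11 of 44 (25%), against 26 of 183 (14.2%) in calls outside the IDR list and 177 of 1667 (10.6%) at no pooled summit. Together they made up 23 of the 44. Among the sites printed above, those of Vha55, tio, CG7656, Cmpk and CG6231 are of the GTGACGTCAC form, and those of l(2)gd1, Fur1, Evi5, rdx, Unr and klar of the other. Those of Dhc64C, CrebB, lncRNA:CR43437, Rtnl1 and lncRNA:CR44082 are of neither.

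Words that differ from the palindrome by 1 base were searched in the same windows on both strands, again after earlier values had been seen. TGACATCA, or TGATGTCA on the other strand, was held by 1.52% of IDR calls and 0.925% of the other pooled calls, and TGACGTAA, or TTACGTCA, by 0.691 and 0.322%. For the palindrome the shares were 1.52 and 0.728%. These shares are not scaled by the copies of each word on the arms. TGACATCA had 4159 copies and was in 274 pooled calls, and TGACGTAA had 1683 and was in 100. The palindrome had 1894 and was in 225. Of the 12 words 1 base away, 6 had a higher share among IDR calls than among the other pooled calls and 6 a lower one. TGACCTCA was lower, at 0.276% of IDR calls against 0.499%, and so was TGAAGTCA, at 0.449 against 0.615%. The top set of replicate 1 held more calls with the word than those of replicates 2 and 3 for 11 of the 12. The lead was small for some words, such as TCACGTCA and TGACCTCA, each with 11, 10 and 8 calls in replicates 1, 2 and 3. For others it was larger, such as TGACGACA with 27, 7 and 7, beside 68, 18 and 28 for the palindrome. A higher count in replicate 1 was thus not particular to the palindrome, but it varied by word, and words unlike the palindrome were not searched. TGACATCA was in 2.62% of the top set of replicate 1, and in 1.0% of those of replicates 2 and 3. TGACGTAA was in 1.28% of the top set of replicate 1, 0.311% of replicate 2 and 0.276% of replicate 3.

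Other motifs in the windows were counted on both strands with overlaps allowed. The pattern TGANTCA, where N is any base, is wider than the AP-1 site that it covers, and its counts were not split by the central base. It was in 13 of the 225 windows (5.78%, 3.41 to 9.63%), against 4.2% of the other calls. The DRE palindrome TATCGATA, known from fly core promoters, was in 1 (0.444%, 0.0785 to 2.47%), against 1.57%, and in 0 of the 44 IDR calls, which allows a share of up to 6.82%, against 4.45% of the other IDR calls. The GAGA repeat GAGAGAG was in 12 (5.33%, 3.08 to 9.09%), against 3.34%. A CRE half-site, TGACG, outside the palindrome was in 51 of the 225 windows (22.7%, 17.7 to 28.6%), against 19.7% of the other calls, and in 13 of the 44 IDR windows (29.5%, 18.2 to 44.2%), against 15.8% of the other IDR calls. TGATGCAA, CAGGTAG and the E-box CACGTG were in 2, 4 and 7 of the 225 windows, against 0.588, 1.29 and 2.79% of the other calls. Median GC content of the windows was 45.3% in the 225 and 45.3% in the other calls, but 42.0% in the 44 IDR calls with the palindrome and 36.8% in the other IDR calls. The part of GC content in the half-site count was not tested.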

How the data were processed

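The authors deposited, for dm6, 1 call list per replicate, a pooled list and an IDR list, with a signal value for each call. Per the labels, chromatin was sonicated and precipitated with anti-GFP. The aligner, caller, control library, IDR threshold and read depth were not given in the sources used here, so no value was scaled by depth, and intervals cover counting error only. The tables are counts of calls, not of reads. dm3 lists were not used.

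From the lists, calls on 6 arms were ranked by deposited signal. Summits, exact motif matches, locations and nearest start sites were computed from NCBI's release 6 genome (dm6) and the Ensembl 115 annotation (17896 genes) in Python 3.11.15 with numpy 2.4.6, pandas 2.3.3 and matplotlib 3.10.9. A summit was called promoter first, then 5′ UTR, coding exon, 3′ UTR, non-coding exon, intron and intergenic. A pooled call was matched to the best ranked overlapping replicate call, so neighbouring pooled calls may share one. Shares carry 95% Wilson intervals, and replicate values an exact sign-flip permutation test. The steps were tested on simulated data.

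The palindrome, members, gene lists and tests were chosen with earlier results of these data known. Named genes are the nearest gene of the 20 strongest calls with the palindrome, of those within the top sets of all 3 replicates and of those with 2 palindromes, listed genes with such a promoter call, and Atf3. Others are named as such. Alternatives were the window, the overlap rule, the number of top calls, the promoter distance, the start sites used and leaving out each replicate.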

Additional observations from a re-analysis of the deposited data

How the results depend on the processing

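No paired analysis was possible because there is 1 group. The share kept by IDR was 17.4% with a window of 50 bp either side and 18.1% with 200 bp, while the share within the 1000 strongest pooled calls was 6.67%. The share found in all 3 replicates was 40.9% with an overlap of at least 1 bp (29.5% of other calls) and 22.2% with summits within 100 bp (15.8% of other calls). Without replicate 1 it was 36.0% (33.1% of other calls), without replicate 2 47.6% (36.1%) and without replicate 3 42.7% (34.4%). The promoter share was 20% within 250 bp (18.7% of other calls) and 43.6% within 1000 bp (39.0% of other calls). The overlap and distance rules differ in strictness, and the values on leaving out a replicate differed with the replicate. The reason for the latter was not tested. The rank difference of -7.08 percentile points reversed to 1.71 in the IDR list alone, an alternative chosen after seeing the data, and that list is itself chosen on pooled signal. Leaving out each replicate gave -10.6 to -1.79 for the rank difference, 0.361 to 1.05 percentage points for the share difference and -37.9 to -33.0 percentage points for the 5′ T. The remaining alternatives kept the direction of their mean, between -10.9 and -5.33 percentile points and between 0.379 and 1.05 percentage points. Replicate signs differed in the rank result with the window of 50 bp either side, with summits within 100 bp and with calls not found ranked last. With 3 replicates the exact sign-flip test cannot fall below 0.25. Read depth per replicate is unknown, so how many palindromes without a call lie below detection cannot be given.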

Other observations

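Seen over all 1894 copies of the palindrome, most were at no replicate summit: 1480 (78.1%) were at none, 297 at 1 list's summits, 78 at those of 2 lists and 39 at those of all 3. Replicate 1 alone held 181, against 57 in replicate 2 alone and 59 in replicate 3 alone. Copies at summits of both other lists and not of replicate 1 numbered 15.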
